A study of Mus musculus with 16 samples.

Results

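Pancreatic tumours of mice were compared by how much RNA of dividing cells they carried. The 16 arrays of the study were ranked by a proliferation score, the mean log2 signal of Mki67, Top2a, Cdk1, Ccnb1 and Birc5 in the authors' quantile-normalized table, taking for each gene the probe with the highest mean over the arrays. The 6 arrays with the highest score (the high-score arrays) were then set against the 6 with the lowest score (the low-score arrays), and the 4 arrays between them were left aside. The comparison thus used 12 of 16 arrays. Because the score was measured on the same arrays, the score and its 5 genes are described without a test, and the 5 genes were kept out of all fits.

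The study measured whole tumour RNA of an orthotopic model, in which the tumour grows in the pancreas itself, in female C57BL/6 mice, to learn which genes change after treatment with ADH-503. ADH-503 is a small molecule that activates CD11b, an integrin chain of neutrophils, monocytes and macrophages, and the sample titles call the compound LA1. The groups were 5 tumours collected after 48 h of ADH-503, 5 collected after 10 days of ADH-503, and 6 from vehicle-treated animals whose time label gives no time. All groups shared the strain, the sex and the tumour model; the tumour cells implanted, the age of the animals and the age of the vehicle tumours are not given in the sources used here. The sample titles carry ID numbers, but the labels do not say that these name animals, and a pair of samples shares an ID number. The p-values therefore describe how far these samples scatter, and some of that scatter may be technical.

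Dividing cells switch on their genes in waves. Genes for DNA replication are driven mainly by E2F factors as a cell enters S phase, and genes for mitosis are held down in resting cells by the DREAM complex and switched on in G2 by the related complex of B-MYB and FOXM1, which reach promoters through a short element called the CHR, often beside CCAAT boxes bound by NF-Y. Ki-67, the product of Mki67, coats mitotic chromosomes and is the usual stain for dividing cells in tumour sections. Top2a untangles replicated DNA, Cdk1 and its partner cyclin B1 (Ccnb1) drive entry into mitosis, and Birc5 (survivin) belongs to the complex that corrects chromosome attachment. In a bulk tumour such genes can come from tumour cells, stromal cells or immune cells that divide.

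The promoters of the score genes and of the replication gene Mcm5 are shown because these elements are known for the genes that the score is made of and for replication genes. Each line holds the 150 bases before the start of the gene, from RefSeq on build GRCm38.p6, 5′ to 3′ on the gene's strand. Capitals mark the CHR (TTTGAA or TTTAAA), the CCAAT box (CCAAT) and an E2F site (TTCCCGC or TTGGCGC), each searched on both strands.
Mki67 (chr7:135716380-135716529, minus strand): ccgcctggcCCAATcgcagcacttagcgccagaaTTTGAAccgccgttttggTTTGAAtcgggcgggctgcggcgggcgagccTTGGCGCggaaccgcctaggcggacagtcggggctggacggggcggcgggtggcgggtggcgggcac
Top2a (chr11:99024190-99024339, minus strand): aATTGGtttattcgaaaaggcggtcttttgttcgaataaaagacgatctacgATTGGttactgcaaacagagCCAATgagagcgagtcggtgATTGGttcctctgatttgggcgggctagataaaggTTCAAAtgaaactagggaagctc
Cdk1 (chr10:69352913-69353062, minus strand): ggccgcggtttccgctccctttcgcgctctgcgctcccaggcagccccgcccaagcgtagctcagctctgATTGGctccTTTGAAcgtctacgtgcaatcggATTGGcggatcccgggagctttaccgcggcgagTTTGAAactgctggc
Ccnb1 (chr13:100786487-100786636, minus strand): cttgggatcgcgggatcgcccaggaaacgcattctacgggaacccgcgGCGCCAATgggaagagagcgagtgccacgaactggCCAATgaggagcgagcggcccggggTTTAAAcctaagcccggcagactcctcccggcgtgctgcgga
Birc5 (chr11:117849087-117849236, plus strand): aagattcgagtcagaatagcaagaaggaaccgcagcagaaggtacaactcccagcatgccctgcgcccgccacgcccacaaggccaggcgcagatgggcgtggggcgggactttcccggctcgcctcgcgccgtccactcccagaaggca
Mcm5 (chr8:75109359-75109508, plus strand): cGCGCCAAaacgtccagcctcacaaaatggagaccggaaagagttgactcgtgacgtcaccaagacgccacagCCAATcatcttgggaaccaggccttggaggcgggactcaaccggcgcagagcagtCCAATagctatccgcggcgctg
Mki67 and Cdk1 each hold 2 CHR matches and Top2a holds 4 CCAAT boxes, while the 150 bases of Birc5 hold none of these letters. In Ccnb1 an E2F match overlaps a CCAAT box.

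Over the 250 bases before the start, all 5 score genes held a CHR, Birc5 among them. The CHR was in 22 of 48 genes of the mitosis list described below (45.8%) and in 8 of 35 genes of the DNA replication list (22.9%), against 7599 of 27025 genes in the promoter table (28.1%). The E2F letters were in 12 of 35 replication genes (34.3%) and 5 of 48 mitosis genes (10.4%), against 6.45% of all genes. CCAAT boxes were in 62.5% of mitosis genes and 62.9% of replication genes, against 37.5% of all genes. Neither element was particular to these lists. Of the other lists searched, histones had the CHR in 12 of 20 genes (60%) and CCAAT boxes in 18 of 20 (90%). Cholesterol synthesis had CCAAT boxes in 13 of 13 genes (100%) and the CHR in 15.4%. CCAAT boxes were in 28.6% of ribosomal protein genes, 25% of respiratory chain genes and 25% of acinar genes. The CHR was in 7.14%, 25% and 20.8% of these. These are matches of letters and do not show that a factor binds there.

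The score ran from 13.075 to 13.458 in the high-score arrays, with a median of 13.144, and from 12.445 to 12.903 in the low-score arrays, with a median of 12.694. The arrays between them ran from 13.001 to 13.07, so the edge of the high side was narrow, 13.075 just inside and 13.07 just outside, while the low side ended at 12.903 with 13.001 just outside. Vehicle replicate 1 had the highest score of all arrays and 10 day replicate 1 the lowest. The mean of the high side was 13.186 ± 0.14 (SD, n = 6) and that of the low side 12.691 ± 0.176 (SD, n = 6).

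No score gene alone separated the sides. Mki67 measured 13.406, 13.516 and 13.687 (lowest, median and highest; log2, quantile-normalized) in the high-score arrays, against 12.957, 13.241 and 13.582 in the low-score arrays. Top2a measured 11.888, 12.092 and 12.485 in the high-score arrays, against 10.983, 11.56 and 11.948 in the low-score arrays. Cdk1 measured 10.541, 10.744 and 11.593 in the high-score arrays, against 9.878, 10.107 and 10.693 in the low-score arrays. For each of these genes the lowest high-score array lay below the highest low-score array. Ccnb1 ran from 14.301 to 14.79 in the high-score arrays and from 13.55 to 14.581 in the low-score arrays. Birc5 ran from 14.679 to 14.968 in the high-score arrays and from 14.38 to 14.743 in the low-score arrays. Here too the sides overlapped.

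**Figure D1:**
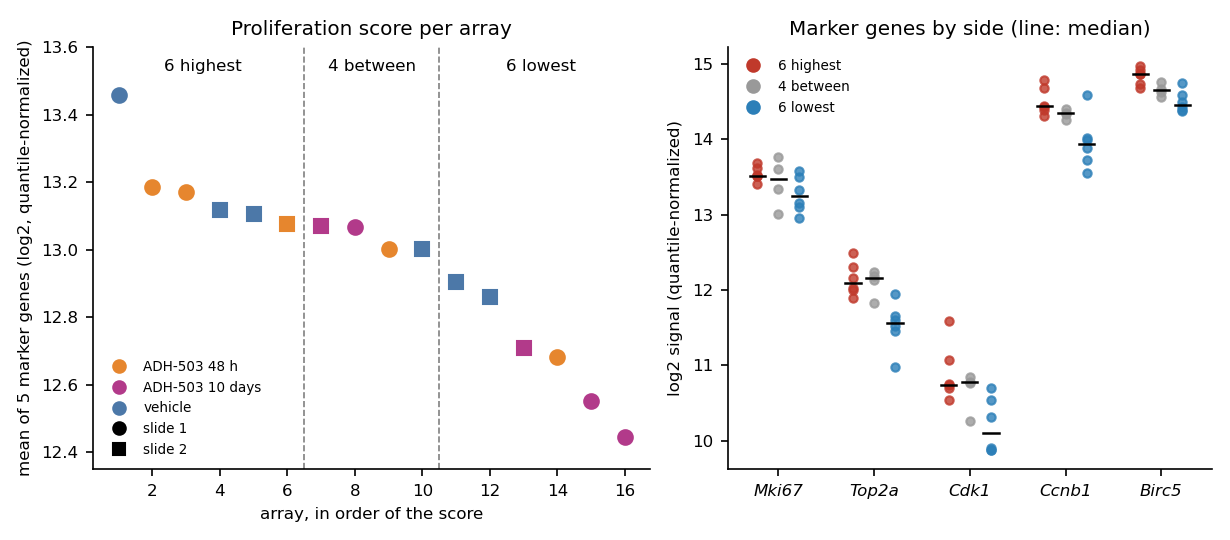
Left, the proliferation score (log2, quantile-normalized) of the 16 arrays in order, coloured by treatment and shaped by slide; dashed lines mark the 6 highest, the 4 between and the 6 lowest arrays. Right, log2 signal of the 5 score genes with a point per array and a line at the median of each side. The score falls without a gap at the upper edge (13.075 against 13.07), no 10 day array is among the 6 highest, and each gene's sides overlap.

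The treatment groups were spread unevenly over the sides. Of the 48 h arrays 3 were on the high side and 1 on the low side. Of the 10 day arrays none was on the high side and 3 were on the low side. Of the vehicle arrays 3 were on the high side and 2 on the low side. The score averaged 13.023 ± 0.205 at 48 h (SD, n = 5), 12.768 ± 0.289 at 10 days (SD, n = 5) and 13.074 ± 0.215 in vehicle (SD, n = 6). With treatment as a covariate, the difference between the sides therefore came from the vehicle arrays, 3 against 2, and the 48 h arrays, 3 against 1, and the 10 day arrays added only to the estimate of the spread. Leaving out 48 h replicate 4, the 1 low-score array at 48 h, thus leaves the vehicle contrast alone. Each of the 2 slides held 3 high-score and 3 low-score arrays. On slide 1 only the 48 h arrays fell on both sides, and on slide 2 only the vehicle arrays did. With treatment as covariate, all values within slides given below rest on these arrays. They are thus no check apart from the values within treatments.

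Signal strength overlapped between the sides. The 75th percentile of processed signal ran from 4952.5 to 6735.8 in the high-score arrays and from 5446.9 to 6599.6 in the low-score arrays, and the share of probes above background was 76.57% to 79.07% in the high-score arrays and 74.93% to 81.18% in the low-score arrays. Gene values from here on are log2 signals relative to the array's 75th percentile, called relative log2 signal, and differences are high-score minus low-score arrays from limma with treatment as covariate. The ranges of the sides, and statements that sides do or do not overlap, are not adjusted for treatment. They pool the treatments, with 3 of the 10 day arrays on the low side and none on the high side. Markers of the labelled tissue were measurable: 30 of 30 acinar markers, 23 of 24 markers of ductal and tumour epithelium and 18 of 18 macrophage markers were well above background on at least 5 arrays, the condition for being tested. Of all names 30563 of 36972 met this condition. So did 11 of 12 liver and 9 of 10 skeletal muscle markers, so these counts do not set the labelled tissue apart.

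Across all genes no difference between highly and weakly proliferating tumours passed correction. In limma 0 of 30558 genes (0%) passed an adjusted p of 0.05, and the smallest adjusted p was 0.957. At an unadjusted p under 0.05 there were 336 genes higher in the high-score arrays (1.1%) and 741 lower (2.42%), 1077 in all, where 1528 would be reached by chance. In 45 genes (0.147%) every high-score array lay above every low-score array, and in 52 genes (0.17%) every high-score array lay below. The median difference of all genes was -0.03 on the log2 scale, and 45.3% of genes were above 0. All gene differences below, for single genes and list members, therefore failed the correction, at an adjusted p of 0.957 or more, and gene groups are described by their counts and medians beside these shares.

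Genes of the mitotic spindle and kinetochore were higher in the high-score arrays in 55 of 59 cases, against 45.3% of all genes, and the median of the list was 0.27, against -0.03 for all genes. At an unadjusted p under 0.05 were 10 of them higher (background 1.1%) and 1 lower. The mean of the list ran from -0.38 to -0.10, with a median of -0.26, in the high-score arrays, and from -0.62 to -0.44, with a median of -0.54, in the low-score arrays, so the sides did not overlap. Since the arrays were ranked on genes of the same programme, this follows from how the sides were made and supports nothing by itself. The list mean was higher by 0.32 among 48 h arrays and by 0.23 among vehicle arrays, and the list median was 0.39 within slide 1 and 0.17 within slide 2. Without the treatment covariate 18 of the genes were higher at an unadjusted p under 0.05 and 1 lower, where 2.63% and 4.49% of all genes were; with the score as a number over 16 arrays 28 were higher and 0 lower, where 3.49% and 8.21% of all genes were.

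Ccna2, the cyclin that partners CDK2 and CDK1 through S phase and G2, measured -0.32, -0.15 and 0.01 (lowest, median and highest relative log2 signal) in the high-score arrays, against -0.92, -0.56 and -0.47 in the low-score arrays. With treatments pooled, every high-score array lay above every low-score array. The difference was 0.44 ± 0.14 (SE, n = 12 arrays); its probe starts at position 36464929 of chromosome 3 (build mm9). Spc24, a subunit of the kinetochore's NDC80 complex that holds microtubules, ran from -0.14 to 0.15 in the high-score arrays and from -0.61 to -0.22 in the low-score arrays, again without overlap, with a difference of 0.42 ± 0.14 (SE). Nuf2, of the same complex, ran from 0.57 to 0.97 in the high-score arrays and from -0.28 to 0.56 in the low-score arrays, with a difference of 0.38 ± 0.18 (SE), and a further probe of it lay the opposite way. These 3 of 59 were the members of the list whose sides did not overlap, where 0.147% of all genes lay higher without overlap. This too follows from how the sides were made.

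Other mitotic genes overlapped. The mitotic kinase gene Aurka ran from -0.30 to 0.12 in the high-score arrays and from -0.87 to -0.21 in the low-score arrays, with a difference of 0.40 ± 0.17 (SE). Kif20a, a motor protein needed for the last step of cell division, ran from -2.23 to -1.58 in the high-score arrays and from -2.74 to -2.01 in the low-score arrays, with a difference of 0.40 ± 0.18 (SE). The spindle gene Spag5 had 0.47 ± 0.20 (SE), but 0.14 without the treatment covariate.

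Genes for DNA replication were higher in 42 of 44 cases (45.3% of all genes) with a median of 0.24. At an unadjusted p under 0.05, 4 were higher (1.1% of all genes). These genes, like the histones and cell cycle entry genes below, belong to the cell cycle programme that the arrays were ranked on. Their direction therefore supports nothing by itself. The list mean ran from 0.60 to 0.69 in the high-score arrays, a narrow band, and from 0.18 to 0.69 in the low-score arrays. A single low-score array, 10 day replicate 5 at 0.687, reached into the high side; the other 5 lay at 0.494 or below. Within the 48 h arrays the list mean was higher by 0.33 and within vehicle by 0.21, and the median was 0.34 within slide 1 and 0.24 within slide 2. Without the treatment covariate 13 genes were higher at an unadjusted p under 0.05 (2.63% of all genes). With the score as a number 14 were (3.49% of all genes).

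Gins2, part of the helicase that opens DNA at replication forks, measured 0.80, 0.95 and 1.25 in the high-score arrays, against -0.02, 0.37 and 0.72 in the low-score arrays. It was the replication gene whose sides did not overlap (1 of 44, against 0.147% of all genes), with a difference of 0.60 ± 0.21 (SE). Mcm5, a subunit of the helicase core whose promoter is shown above, measured -1.04, -0.68 and -0.52 in the high-score arrays, against -2.12, -1.37 and -1.02 in the low-score arrays. Its sides overlapped narrowly, 48 h replicate 1 lying at -1.043 just below 10 day replicate 5 at -1.021, and the difference was 0.60 ± 0.22 (SE). Rrm2, the regulated subunit of ribonucleotide reductase, which makes deoxynucleotides, ran from 1.29 to 1.66 in the high-score arrays and from 0.75 to 1.39 in the low-score arrays. Its difference was 0.47 ± 0.17 (SE), and that of Rfc5, a subunit of the clamp loader, 0.36 ± 0.12 (SE), with both further probes of Rfc5 opposite.

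Histones, which are made in bulk in S phase, were higher in 16 of 19 cases (45.3% of all genes) with a median of 0.19. At an unadjusted p under 0.05, 2 were higher (1.1% of all genes). H2ax, the histone variant that marks broken DNA, measured 0.80, 0.95 and 1.21 in the high-score arrays, against 0.24, 0.42 and 1.06 in the low-score arrays. The high side overlapped with 10 day replicate 5 alone, since the other 5 low-score arrays lay at 0.51 or below. Its difference was 0.66 ± 0.17 (SE). The linker histone gene H1f1 had 0.54 ± 0.19 (SE) and no overlap, from 1.02 to 1.64 in the high-score arrays and from 0.50 to 1.02 in the low-score arrays, where the facing edges were both 1.019 when rounded. H4c4, a core histone gene, did not overlap either, at 0.25 ± 0.16 (SE). These were 2 of 19 histone genes, against 0.147% of all genes. Histone genes are similar in sequence, so probes may share targets.

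Regulators of cell cycle entry were higher in 20 of 24 cases with a median of 0.14, none at an unadjusted p under 0.05. Foxm1, the mitotic transcription factor, ran from 0.83 to 1.13 in the high-score arrays and from 0.47 to 0.89 in the low-score arrays, with a difference of 0.24 ± 0.12 (SE). Cyclin E2 (Ccne2), which acts at the entry to S phase, had 0.80 ± 0.40 (SE). Rb1, encoding the retinoblastoma protein that restrains E2F, was also on the higher side, at 0.30 ± 0.14 (SE). Its relative Rbl1, at 0.25 ± 0.14 (SE), was the member whose sides did not overlap (1 of 24, against 0.147% of all genes). Genes of homologous recombination and the Fanconi pathway lay nearer to all genes, with 15 of 22 higher and a median of 0.05; Atad5, which unloads the replication clamp, had 0.50 ± 0.16 (SE). Inhibitors of cyclin-dependent kinases and p53 targets had 13 of 20 higher and a median of 0.08, with Ccng1 at 0.40 ± 0.20 (SE) and the antiproliferative gene Btg2 at 0.17 ± 0.13 (SE). Over all 16 arrays with the score as a number, the median of the arrest genes was -0.11 per unit of score, against -0.15 for all genes, and that of the mitosis list 0.63.

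**Figure D2:**
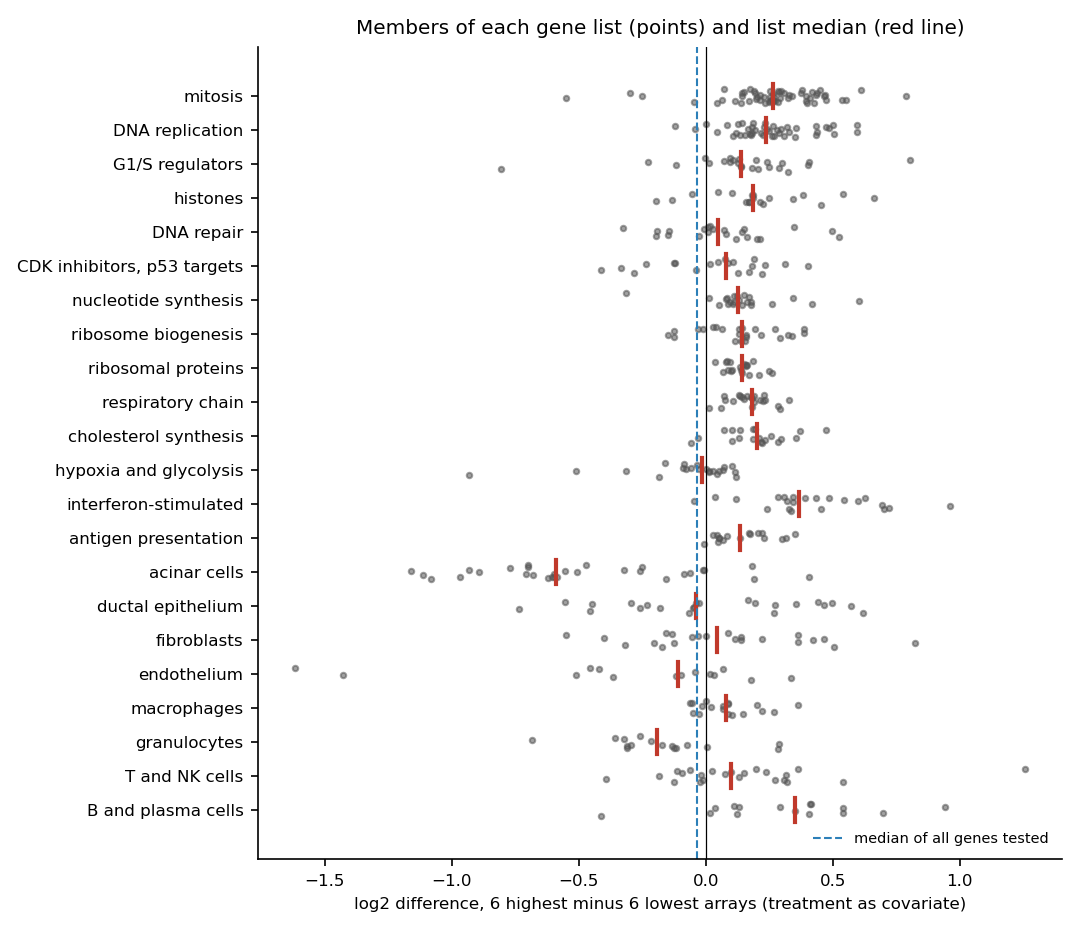
Difference between high-score and low-score arrays (log2, treatment as covariate) of each tested member of 22 gene lists, a grey point per gene and a red line at the list's median; the dashed line is the median of all 30558 genes, -0.03. The mitosis and DNA replication lists lie mostly right of 0, the acinar list mostly left of it.

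Genes that supply a growing cell also lay higher, by small amounts. Purine and pyrimidine synthesis had 21 of 22 genes higher and a median of 0.13, with Dhodh, the mitochondrial step of pyrimidine synthesis, at 0.60 ± 0.23 (SE) and Gmps, which makes GMP, at 0.34 ± 0.21 (SE). Ribosome biogenesis had 19 of 24 higher and a median of 0.14, with the nucleolar factors Rrs1 at 0.39 ± 0.16 (SE) and Nop16 at 0.32 ± 0.22 (SE). Each of these lists had 1 gene higher at an unadjusted p under 0.05, as had 1.1% of all genes. Without 48 h replicate 4, which leaves the vehicle contrast alone, the nucleotide median was 0.06 with 14 of 22 genes higher. All 20 ribosomal protein genes and all 22 respiratory chain genes were higher, with medians of 0.14 and 0.18, and none at an unadjusted p under 0.05. Without vehicle replicate 4 these medians were 0.03 and 0.10, and without vehicle replicate 2 they were 0.23 and 0.26. When single arrays were left out, 13 to 20 ribosomal protein genes and 20 to 22 respiratory chain genes were higher. Rpl7 had 0.26 ± 0.15 (SE), Rpl6 0.25 ± 0.15 (SE), the complex III subunit Uqcrfs1 0.29 ± 0.13 (SE) and the cytochrome oxidase subunit Cox4i1 0.29 ± 0.14 (SE). The list means overlapped between the sides: for the respiratory chain they ran from 2.77 to 2.95 in the high-score arrays and from 2.46 to 2.90 in the low-score arrays. Housekeeping genes lay the same way, with 9 of 12 higher and a median of 0.10, so a smaller shift of the same sign was also seen in genes chosen as controls. Within slides 1 and 2 the medians were 0.04 and 0.19 for ribosomal proteins, 0.17 and 0.19 for the respiratory chain and 0.08 and 0.08 for housekeeping genes. Part of these medians moved with the scaling: with the authors' quantile-normalized values they were 0.08 for nucleotide synthesis, 0.08 for ribosome biogenesis, 0.07 for ribosomal proteins, 0.11 for the respiratory chain and 0.04 for housekeeping genes. With normexp and quantile normalization they were 0.063, 0.065, 0.046, 0.053 and 0.033 in the same order.

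Cholesterol synthesis had 18 of 20 genes higher and a median of 0.20, with none at an unadjusted p under 0.05. The list mean ran from 1.101 to 1.51 in the high-score arrays and from 0.95 to 1.43 in the low-score arrays. Hmgcs1, which makes the substrate of the pathway's rate-limiting enzyme, had 0.22 ± 0.14 (SE), Idi1 0.47 ± 0.30 (SE) and the sterol oxidase Msmo1 0.28 ± 0.20 (SE). The list mean was higher by 0.36 among 48 h arrays and by 0.10 among vehicle arrays, and the median was 0.14 with the authors' quantile-normalized values and 0.104 with normexp and quantile normalization. Genes of hypoxia and glycolysis had 11 of 22 higher and a median of -0.01, but the median was -0.15 without vehicle replicate 4 and 0.17 without vehicle replicate 2. With the score as a number 2 of 22 were higher, with a median of -0.19 per unit of score, near the -0.15 of all genes.

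Interferon-stimulated genes had 21 of 22 members higher and a median of 0.37, and the values within treatments lay apart, a difference that was not tested. The list mean was higher by 0.74 in the high-score vehicle arrays, from 0.78 to 1.31 in the 3 of them against -0.13 and 0.72 in the 2 low-score ones, and -0.09 apart among 48 h arrays, from 0.41 to 0.92 against 0.77. The median was -0.05 within slide 1, resting on 48 h arrays, and 0.89 within slide 2, resting on vehicle arrays. Vehicle replicate 2 had the lowest mean of all arrays, -0.128, and without it the median was 0.15. Without 48 h replicate 4, which leaves the vehicle contrast alone, the median was 0.74. Rsad2 (viperin), an antiviral enzyme, had 0.60 ± 0.24 (SE) and was the member at an unadjusted p under 0.05; Oas3, a sensor of viral RNA, had 0.96 ± 0.47 (SE), and the transcription factor Irf7 had 0.49 ± 0.24 (SE). Antigen presentation genes had 16 of 17 higher and a median of 0.14, with 17 higher within vehicle and 7 higher within the 48 h arrays. With the score as a number 9 were higher, with a median of 0.0 per unit of score, against -0.15 for all genes. On slide 1 the median was -0.09 and on slide 2 it was 0.30; leaving out vehicle replicate 4 gave 0.04. Of these Tapbp, which helps load peptides on MHC class I, did not overlap, with 3.91 to 4.04 in the high-score arrays and 3.59 to 3.89 in the low-score arrays. It was 1 of 17 members to do so, against 0.147% of all genes, and had 0.23 ± 0.12 (SE). The peptide transporter Tap1 had 0.35 ± 0.20 (SE).

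In 10 of 19 cell type lists, acinar, ductal, fibroblast and endothelial markers among them, the high-score arrays all lay above the low-score array at 48 h and all below the low-score arrays in vehicle; the difference between treatments was not tested. The other 6 were pericytes and smooth muscle, adipocytes, mesothelium, nerve and Schwann cells, intestinal epithelium and liver. All 10 lists rest on the same arrays, with 1 low-score array at 48 h and 2 in vehicle, so they are not separate observations. How many of all genes lay this way is not given here. In bulk tissue, fewer cells of a type and less RNA per cell cannot be told apart. Acinar markers, the digestive enzymes of normal pancreas, were lower in 27 of 30 cases with a median of -0.59 (54.7% of all genes were below 0), but without the treatment covariate the median was 0.08. The list mean ran from -0.84 to 1.37 in the high-score arrays and from -0.72 to 0.97 in the low-score arrays. Among 48 h arrays it was higher on the high side, from 1.17 to 1.37 against 0.65, and among vehicle arrays it was lower, from -0.84 to 0.20 against 0.84 and 0.97. The protease Ctrl had -1.16 ± 0.50 (SE), the granule proteins Zg16 and Sycn -0.68 ± 0.31 (SE) and -1.08 ± 0.54 (SE), and no acinar list member but Ctrl was at an unadjusted p under 0.05. The median was 0.40 within slide 1 and -1.36 within slide 2; with treatment as covariate the slide 1 value rests on 48 h arrays and the slide 2 value on vehicle arrays, so slide and treatment cannot be told apart here. With the acinar mean as a further covariate the median of the mitosis list was 0.29.

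Ductal and tumour epithelium behaved likewise. The list had 10 of 23 genes higher and a median of -0.04 (0.02 with the authors' quantile-normalized values), and a list mean from -1.18 to 0.55 in the high-score arrays and from -2.17 to 0.67 in the low-score arrays. The mean was higher by 1.94 among 48 h arrays and lower by 1.18 among vehicle arrays (high minus low, -1.18), and the median was 2.13 within slide 1 and -1.23 within slide 2. The claudin Cldn7 had -0.29 ± 0.17 (SE) and the ductal transcription factor Sox9 -0.45 ± 0.45 (SE). Fibroblast genes had 12 of 22 higher and a median of 0.05, with the activation marker Fap at 0.47 ± 0.25 (SE) and Pi16, of quiescent fibroblasts, at -0.40 ± 0.25 (SE). Endothelial genes had 5 of 14 higher and a median of -0.11; Esam had -0.42 ± 0.30 (SE), and Emcn, at -1.62 ± 0.87 (SE), was well above background on 1 high-score and 4 low-score arrays only and had -0.26 with normexp and quantile normalization. Both of these lists, too, were higher on the high side at 48 h and lower on it in vehicle. Without 48 h replicate 4, the single low-score array at 48 h, the differences rest on the vehicle arrays alone. The list medians were then -1.12 for acinar cells, -1.12 for ductal epithelium, -0.28 for fibroblasts and -0.80 for endothelium. Without vehicle replicate 2 the ductal median was 0.74 and the acinar median -0.30.

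The list means of the immune cell types described here overlapped between the sides. Macrophage markers had 12 of 18 higher and a median of 0.08, with a list mean from 3.501 to 3.73 in the high-score arrays and from 3.31 to 3.67 in the low-score arrays; the Fc receptor gene Fcgr1 had 0.36 ± 0.24 (SE) and the scavenger receptor gene Msr1 0.27 ± 0.23 (SE). Granulocyte markers had 13 of 16 lower and a median of -0.19, with Chil3 at -0.68 ± 0.58 (SE) and the receptor for G-CSF, Csf3r, at -0.13 ± 0.12 (SE). T and NK cell markers had 14 of 23 higher and a median of 0.10. With the score as a number 6 were higher, with a median of -0.31 per unit of score, against -0.15 for all genes. Within vehicle arrays 13 were higher, with a median of 0.01. Cd8a, a chain of the coreceptor of cytotoxic T cells, measured -2.52, -1.39 and 0.35 in the high-score arrays, against -2.86, -2.22 and -1.61 in the low-score arrays. The sides overlapped, vehicle replicate 3 was the highest, the difference was 1.26 ± 0.45 (SE), and a further probe of Cd8a lay the opposite way. The NK receptor gene Klrk1 had 0.36 ± 0.24 (SE). B and plasma cell markers had 14 of 15 higher and a median of 0.35, but 0.00 without vehicle replicate 2 and 0.65 without vehicle replicate 4, and within the 48 h arrays 8 of 15 were higher. Named members were the antibody joining chain gene Jchain at 0.94 ± 0.43 (SE) and Mzb1 at 0.70 ± 0.48 (SE). Within slides 1 and 2 the medians were -0.04 and 0.11 for macrophages, 0.63 and -0.56 for granulocytes, 0.28 and 0.12 for T and NK cells, and -0.46 and 0.70 for B and plasma cells.

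**Figure D3:**
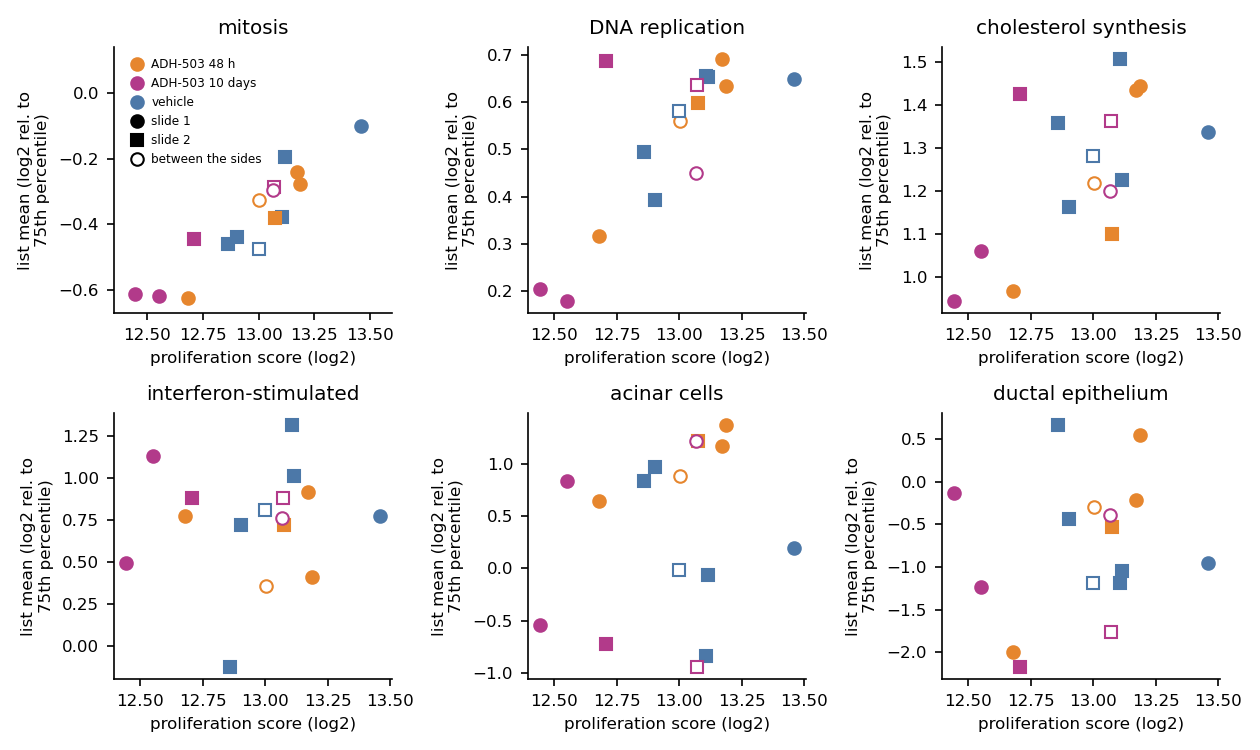
Mean relative log2 signal of 6 gene lists against the proliferation score, a point per array, coloured by treatment and shaped by slide, open where the array lay between the sides. The mitosis means of the sides do not overlap (-0.38 to -0.10 in high-score arrays, -0.62 to -0.44 in low-score arrays). Acinar and ductal means differ between arrays of similar score, also within a treatment. The acinar mean is 1.215 in 10 day replicate 3 (score 13.066, slide 1) and -0.944 in 10 day replicate 4 (score 13.07, slide 2). The ductal means of these arrays are -0.39 and -1.764 in the same order.

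The single genes with the smallest p outside the cell cycle lists were chosen for their p on these arrays and none passed. Among the 10 higher, Myb, a transcription factor of progenitor cells, measured -4.20, -3.51 and -2.93 in the high-score arrays, against -5.67, -4.38 and -3.71 in the low-score arrays, with a difference of 1.34 ± 0.31 (SE) and 1 of its 2 further probes opposite. Cxcl9, an interferon-induced chemokine that draws T cells, measured -2.62, -1.77 and -0.85 in the high-score arrays, against -3.43, -3.14 and -1.65 in the low-score arrays, with a difference of 1.46 ± 0.40 (SE). Both overlapped between the sides. Tuba3a, an alpha tubulin, did not, from -0.15 to 0.05 in the high-score arrays and from -0.58 to -0.26 in the low-score arrays, with 0.46 ± 0.12 (SE). Sar1b, a GTPase of vesicle export from the endoplasmic reticulum, had 0.46 ± 0.13 (SE) and Cst7, a protease inhibitor of cytotoxic cells, 0.67 ± 0.19 (SE). The other 5 (Tspan2, Cdk5rap1, Nrgn, Pjvk and Ly6f) ran from 0.81 to 1.74; Pjvk was well above background on 3 arrays of each side and had 0.29 without the covariate. With normexp background correction and quantile normalization Myb had 0.76 and Pjvk 0.72.

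Among the 10 lower, Ccl1, a chemokine, measured -4.41, -3.78 and -2.86 in the high-score arrays, against -2.75, -2.37 and -1.31 in the low-score arrays. The sides did not overlap, and the difference was -1.73 ± 0.33 (SE), but a further probe of Ccl1 lay the opposite way. Fam183b had the smallest p of all named genes, with -5.36 to -4.72 in the high-score arrays and -4.41 to -3.83 in the low-score arrays, no overlap and a difference of -0.91 ± 0.17 (SE). Cep295nl and Catsperg2 did not overlap either, at -1.27 ± 0.27 (SE) and -1.01 ± 0.25 (SE). Hlf, a circadian transcription factor, had -2.39 ± 0.59 (SE) and was well above background on 3 of 6 high-score and 6 of 6 low-score arrays. The growth factor receptor adaptor Grb10 had -0.66 ± 0.16 (SE) and the desmosome plakin Ppl -0.75 ± 0.20 (SE), each with a further probe opposite. The other 3 (Zfp346, Rab36 and Rbbp8nl) ran from -1.12 to -0.46, and a further probe of Zfp346 and one of Rab36 lay the opposite way. With normexp and quantile normalization Hlf had -0.97, Fam183b -0.44 and Grb10 -0.23. Among the list members named above, Foxm1, Atad5, Dhodh, Rpl7, Hmgcs1, Msmo1, Uqcrfs1, Sox9 and Fap also had a further probe that lay opposite.

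**Figure D4:**
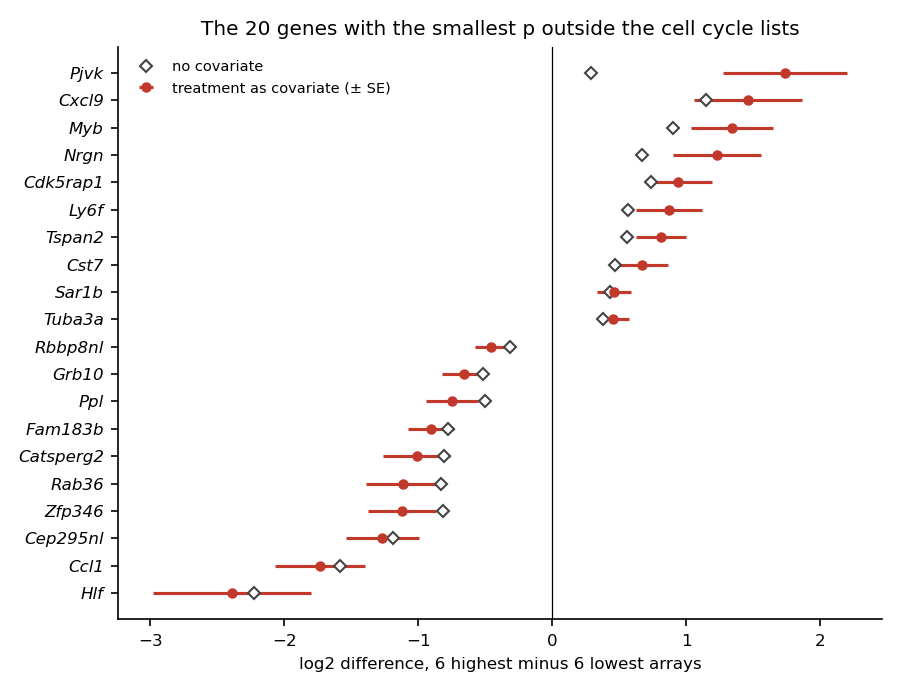
Log2 difference, high-score minus low-score arrays, of the 10 genes with the smallest p in each direction outside the cell cycle lists; red points with bars give the value ± SE with treatment as covariate, open diamonds the value without it. The values run from -2.39 (Hlf) to 1.74 (Pjvk), and Pjvk moves most without the covariate, to 0.29.

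Over all 16 arrays the genes whose values were most like the score, apart from its own, were Ccna2 (Pearson's r = 0.875), Nuf2 (r = 0.845), Slc25a13 (r = 0.84), Kif20a (r = 0.836) and Aurka (r = 0.828). These were the 5 highest among tested genes with an official symbol and a value on all 16 arrays. They are given as a description, and share arrays, slides and RNA with the score. Spearman's rho was 0.894, 0.865, 0.715, 0.815 and 0.876 in the same order. Without the 2 arrays whose score lay farthest from the median, r was 0.81, 0.734, 0.695, 0.741 and 0.703 over 14 arrays. Slc25a13, a mitochondrial aspartate and glutamate carrier, was the one outside the mitosis list; it ran from -0.13 to 0.33 in the high-score arrays and from -0.50 to -0.10 in the low-score arrays.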

How the data were processed

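Total RNA was amplified as cDNA, labelled with Cy5 and hybridised to 1-colour Agilent mouse arrays, per the labels' protocols, and the submitters' processing notes name Agilent Feature Extraction 11.5.1.1. Processed signals are, per the file headers, background-subtracted intensities on a linear scale with probe positions on mm9. The authors also deposited a log2 table, found to be quantile-normalized (sorted columns differ by at most 0.0043), which gave the score.

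The log2 processed signal was averaged over the spots of a probe without outlier spots, and each array's 75th percentile over 56605 probes was subtracted; no spot was saturated. Of 36972 names, matched to a RefSeq table of mouse genes (32989 probes by accession, 10695 by Entrez ID, 247 by symbol or synonym, 12674 keeping the file's name), each took the probe with the highest mean. Genes well above background on at least 5 of 16 arrays were tested, which left 30558 without the 5 score genes. The fit was limma 3.58.1 in R 4.3.3, lmFit with side and treatment group over 12 arrays and robust eBayes, 2-sided, with Benjamini-Hochberg adjustment over all genes. It was tested on simulated data. The number of arrays limits the precision.

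Lists are 40 sets of 764 symbols. The score, the members and the lists were chosen with earlier results of these data known. Named were, in each direction, the 10 genes with the smallest p outside the cell cycle lists (official symbol, signal clear of background in 3 or more arrays per side). Also named were 2 to 4 members of smallest p per described list, and the 5 genes with an official symbol most correlated with the score. A further probe is mentioned where it was well above background on at least 5 arrays and lay the opposite way without the covariate. Some genes that this rule takes are not reported here. H4c4 and Rbl1 are named for their non-overlap, after their values were seen. The titles of vehicle replicate 2 and 48 h replicate 5 share an ID number, while their descriptions differ. Vehicle replicate 2 is a low-score array and 48 h replicate 5 a high-score array. Results were also computed without both. Alternatives covered normalization, filters, covariates, slides, other splits, the score as a number and leaving out each array.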

Additional observations from a re-analysis of the deposited data

Results flagged for a closer look

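Within the sides, 8 of 192 sets of values had an array standing apart by Dixon's criterion, which chance gives in about 1 in 20 sets. On the high side these were the score of vehicle replicate 1 (13.458, the next array at 13.186), the ribosome biogenesis mean of vehicle replicate 3 (0.592, the next at 0.704) and Rb1 in vehicle replicate 5 (1.041, the next at 1.352). On the low side they were H2ax in 10 day replicate 5 (1.064, the next at 0.508), Rpl6 in the same array (4.015, the next at 3.664), Nuf2 in 10 day replicate 1 (-0.277, the next at 0.269), the mean of T and NK cell markers in 10 day replicate 1 (-0.545, the next at -0.739) and Mzb1 in vehicle replicate 2 (-2.598, the next at -1.558). The sides were cut on the score, so the chance rate does not hold for the score itself, which is only described.

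In 10 of 19 cell type lists all high-score arrays lay on one side of the low-score arrays at 48 h and on the other side in vehicle. The difference between treatments was not tested, and the 48 h low side is 1 array. All these lists rest on the same arrays, and how many of all genes lay this way is not given here. For acinar markers the high minus low difference of the list mean was 0.606 at 48 h and -1.135 in vehicle. For ductal and tumour epithelium it was 1.939 at 48 h and -1.178 in vehicle, for fibroblasts 0.867 and -0.431, and for endothelium 0.467 and -0.806 in the same order. It was 0.335 at 48 h and -0.518 in vehicle for pericytes and smooth muscle, 0.455 and -0.426 for adipocytes, 0.213 and -0.543 for mesothelium, and 0.529 and -0.661 for nerve and Schwann cells. It was 0.91 at 48 h and -0.884 in vehicle for intestinal epithelium, and 0.707 and -0.733 for liver. Of the 20 other lists, 1 showed it too, matrix metalloproteinases, at 0.925 and -0.466.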

How the results depend on the processing

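No paired analysis was possible because the labels carry no replicate numbers and the numbers used here only name the arrays. Under 30 alternatives the count of genes past the adjusted threshold was 0, except without the filter on dim probes, where 1 gene passed: the unannotated gene Gm19610, at -3.34 with adjusted p = 0.00826, well above background on 4 of 16 arrays. At an unadjusted p under 0.05 the count was 1077 in the fit reported and 807 to 1504 when single arrays were left out. It was 2174 without the treatment covariate, 2067 with slide as the only covariate, 2198 within slide 1, 1585 within slide 2, 1767 within vehicle arrays, 3575 with the score as a number and 3846 with the score as a number and no covariate, where 1528 would be reached by chance; the cause was not tested. The score as a number gave 1067 genes higher (3.49%) and 2508 lower (8.21%), and its smallest adjusted p was 0.193. With the authors' quantile-normalized values there were 597 higher and 579 lower, in place of 336 and 741, and the median of all genes was 0.00; with normexp and quantile normalization these were 580, 730 and 0.00.

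Of 2216 values of 74 named genes under the alternatives 2202 kept their sign. Part of this count was fixed in advance. The filters and the other eBayes setting leave a gene's difference unchanged, and the score from the scaled signals gave the same sides. Most named genes were also chosen for small p on these arrays, so the count does not measure how stable they are. Those that reversed were, within slide 1, Oas3 (-0.013), Tap1 (-0.146), Ctrl (0.023), Sycn (0.126), Sox9 (0.794), Mzb1 (-0.161), Klrk1 (-0.055) and Esam (0.574), and within slide 2 Msr1 (-0.069). Btg2 was at -0.057 with 8 against 8 arrays and -0.18 with the score as a number. Sox9 was at 0.009 without both arrays that share an ID number and 0.002 with the score as a number and no covariate, where Pjvk was at -0.027. The cause was not tested. Of 1170 list medians 61 moved by more than the spread within the sides. When single arrays were left out, the mitosis list had 52 to 56 genes higher and 2 to 11 of them at an unadjusted p under 0.05 (4 without vehicle replicate 1), and its median ran from 0.25 to 0.34; the interferon median ran from 0.15 to 0.74, the acinar median from -1.12 to -0.30 and the ductal median from -1.12 to 0.74, with vehicle replicate 2 or 48 h replicate 4 left out at each end. Leaving out 48 h replicate 4 gives the vehicle contrast, so that end is not a separate result. Alternatives without covariate within vehicle, with slide alone and with the score as a number and no covariate were chosen after seeing the data. With normexp and quantile normalization 16 of 74 named genes had values over 1.5 times smaller, among them Emcn at -0.26, Hlf at -0.97, Pjvk at 0.72, Fam183b at -0.44, Grb10 at -0.23 and Myb at 0.76; with the authors' quantile-normalized values there were 4.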
